A study of Mus musculus with 48 samples.

Results

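The transcripts described here are 100 Affymetrix probe sets from NIH3T3 cells, a mouse fibroblast line, ranked highest by their fit to a 24 h cosine. Their fitted peaks lie between hours 20 and 32, and they are not transcripts of the clock itself. The cells had been grown to confluence and shocked with forskolin, which raises cyclic AMP and aligns the clocks of cultured cells. RNA was taken at every hour from hour 20 to hour 67, with 1 array and no replicate per hour, so 48 arrays in all and no untreated or unshocked cells. Errors marked ± are standard errors of the fitted model, and precision is set by how many arrays there are.

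Members were found by fitting the log2 signal of each probe set with a straight line over the hours and a 24 h cosine. Among 45037 probe sets, 16303 carried 1 gene symbol and a mean log2 signal of 10 or more, 8476 of these had a fitted peak before hour 32, and 11 of those belonged to clock genes and were set aside. The remaining 8465 were ranked by the share of their variance around the linear trend that the cosine took, and the top 100, probe sets of 97 genes, were kept. Members were thus chosen by measured values of these same arrays, namely the mean, the fitted peak and the cosine share, and the share, the amplitude (mean to peak, in log2 units) and the peak hour of a member are descriptions and not findings. A transcript that peaked just before hour 44, equal to just before hour 20, fell outside the limit. The last members inside were Ahnak (share 0.290), Pmvk (0.289) and Ccny (0.289), and the first outside were Nisch (0.288), Metap2 (0.288) and Cyp51 (0.287), so the rank limit falls within a continuum.

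In the mammalian clock, Bmal1 and its partner activate genes through E-boxes, short DNA elements in their promoters. The Period and Cryptochrome proteins made in this way shut the activators down again about once a day, and the Rev-erb receptors repress Bmal1 in a second loop. Clock-controlled genes are transcripts outside these loops that are driven by clock factors.

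Array quality differed between hours. In 10 arrays, those of hours 20, 22, 24, 36, 38, 40, 43, 45, 46 and 67, the signal of β-actin at its 3′ end was over 1.4 log2 units above that at its 5′ end (median of all arrays 1.13, highest 2.42 at hour 36), as happens where RNA or cDNA is shorter. A 24 h cosine fitted to this difference had an amplitude of 0.14 ± 0.06, a peak at hour 42.4 and a share of 0.0984, and was not tested. The 4 arrays of hours 52 to 55 had BioB spike-in signals 0.90 log2 units above the others. All 8 fibroblast markers examined had mean log2 signals of 16.4 to 19.0. Epithelial, endothelial and skeletal muscle markers lay between 5.34 and 5.63, below the median of all probe set means (6.67). Of the adipocyte, macrophage and neuron markers, Fabp4 (15.8), Snap25 (15.1) and Cd68 (10.4) were above 10.

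The members swung little. Their median amplitude was 0.131 log2 units, and amplitudes ran from 0.016 for Rps2, a protein of the small ribosomal subunit, to 0.69 for Sphk2, a kinase that makes sphingosine 1-phosphate. The fitted peak-to-trough ratio was under 1.2 in 50 members and over 1.5 in 5. The cosine took a share of 0.289 to 0.835 of the detrended variance, with a median of 0.328. By limma's F-test of the 24 h cosine, 50 of the 100 passed at an adjusted p under 0.05, beside 0.293% of all probe sets. The rule used this contrast, so nothing is read from that count. RNA came from whole dishes, in which fewer cells with a transcript and less of it per cell cannot be told apart.

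Fitted peaks fell into a pair of clusters. Of the 100 members, 38 peaked in hours 20 to 22 and 50 in hours 28 to 32, and the 6 h between held 12. Among the 8465 ranked probe sets the hours 20 to 22 held 20.5%, the hours 28 to 30 20.3% and the hours 30 to 32 26.9%. The members held 23% in hours 28 to 30 and 27% in hours 30 to 32, so late peaks were about as common as among all ranked probe sets. The rule's limits at hours 20 and 32 cut the clusters at their outer edges. The 41 members that peaked before hour 24 are called early below, and the 50 that peaked from hour 28 on are called late. The earliest peaks were those of Gripap1 (hour 20.0 ± 0.95), Rgl2 (20.1 ± 0.95) and Naalad2 (20.1 ± 0.85), and the latest those of Sin3b (31.9 ± 0.93), Bzw1 (31.9 ± 0.67) and Anapc10 (32.0 ± 0.86). With standard errors near 0.86 h (median), neighbours in this order cannot be told apart.

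**Figure D1:**
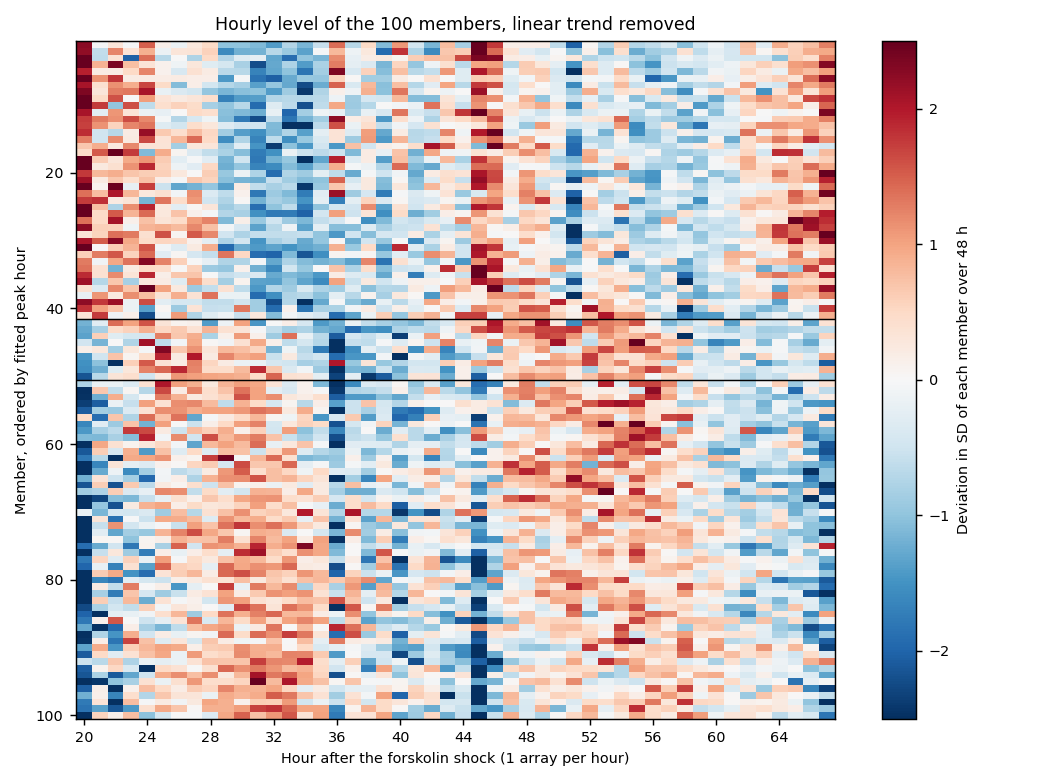
Level of each of the 100 members at each hour, in SD around its own linear trend (red above, blue below), with members ordered by fitted peak from top to bottom and black lines at peaks of 24 and 28 h. The 41 early members at the top and the 50 late members at the bottom are near mirror images, and the arrays of hours 20, 36 and 45 stand out as columns.

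Sphk2 stood apart from the rest. Its log2 signal had a lowest value of 9.52 at hour 37, a median of 10.5 and a highest value of 11.6 at hour 51. At its fitted peaks, hours 26 and 50, it stood at 10.62 and 11.51, against 9.76 and 10.60 at the troughs of hours 38 and 62, so the trough of the second cycle was as high as the peak of the first. Its amplitude was 0.69 ± 0.05 (peak-to-trough ratio 2.59), its peak hour 25.7 ± 0.24 and its share 0.835, and the signal climbed by 1.36 ± 0.11 over the 47 h (limma, adjusted p = 2.26e-14). The annotation of the mouse genome places Car11, Dbp and Sphk2 next to each other on chromosome 7, in that order, and the annotated ends of Dbp and Sphk2 overlap by 741 bases. Dbp is a clock output gene, set aside by the rule, with an amplitude of 0.73 ± 0.04, a peak at hour 25.6 ± 0.19 and a climb of 1.57 over the course at its brighter probe set. The member probe set of Sphk2 had a mean log2 signal of 10.6, against 11.3 for the other Sphk2 probe set, which had an amplitude of 0.14 ± 0.07, a peak at hour 20.2 and a change of -0.48 over the course. Which Sphk2 probes lie in the overlap was not examined here, and the 24 h signal under the name of Sphk2 rests on 1 of its 2 probe sets.

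Car11, the neighbour on the other side of Dbp, encodes a carbonic anhydrase-related protein. Its signal ran from 10.4 at hour 20 through a median of 11.7 to 12.2 at hour 53. The amplitude was 0.38 ± 0.06 with a peak at hour 27.9 ± 0.55, and the signal climbed by 1.14 ± 0.14 (adjusted p = 3.29e-09, limma). Its amplitude was 0.28 once the 10 arrays above 1.4 for β-actin were dropped. The member probe sets of Sphk2 and Car11, like the brighter one of Dbp, thus climbed over the course, whereas the other Sphk2 probe set did not.

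Tomm20 and Eif5a2 had shares of 0.608 and 0.586, above that of Car11 (0.514). Tomm20, a receptor of the import machinery in the outer mitochondrial membrane, had a lowest log2 signal of 14.6 at hour 20, a median of 15.1 and a highest of 15.4 at hour 56, with an amplitude of 0.16 ± 0.02. Eif5a2, a translation factor that helps ribosomes through difficult stretches, had 12.05 at hour 36, a median of 12.8 and 13.1 at hour 51, with an amplitude of 0.21 ± 0.03. Both peaked close to hour 28 (28.1 ± 0.46 and 28.2 ± 0.48). Yy1, a zinc finger transcription factor, peaked at hour 27.0 ± 0.58 with an amplitude of 0.16 ± 0.03, and Rprd2, which binds the tail of RNA polymerase II, at hour 27.6 ± 0.62 with 0.27 ± 0.05. Rprd2 ranged from 12.50 at hour 36 to 13.95 at hour 26, and its value at hour 36 lay 0.75 below the curve fitted to the other arrays. Cirbp, an RNA-binding protein induced by mild cold, ranged from 13.2 at hour 66 to 14.3 at hour 24, around a median of 13.7, with an amplitude of 0.16 ± 0.03 and a peak at hour 28.5.

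The highest ranked early members were Rab10os, a non-coding transcript, Ttll3, a tubulin glycylase, Zfr2, a zinc finger protein, and Sfi1, a centrosome protein. Rab10os ran from 12.6 at hour 32 through a median of 13.0 to 13.5 at hour 67. It stood at 13.20 and 13.39 at hours 21 and 45, against 12.83 and 12.92 at hours 33 and 57, so that both peak arrays were above both trough arrays, and the fit gave 0.22 ± 0.03 with a peak at hour 20.6 ± 0.56. Ttll3 had its highest value, 12.3, at hour 20 and its lowest, 10.7, at hour 32. At its second peak, hour 44, it stood at 11.27, within 0.5 of its second trough (10.80 at hour 56). Zfr2 and Sfi1 had amplitudes of 0.20 ± 0.03 each and peaks at hours 20.4 and 20.2, and Bzw1, a regulator of start codon choice and the one late member of the first 12 to peak near hour 32, had 0.08 ± 0.01.

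**Figure D2:**
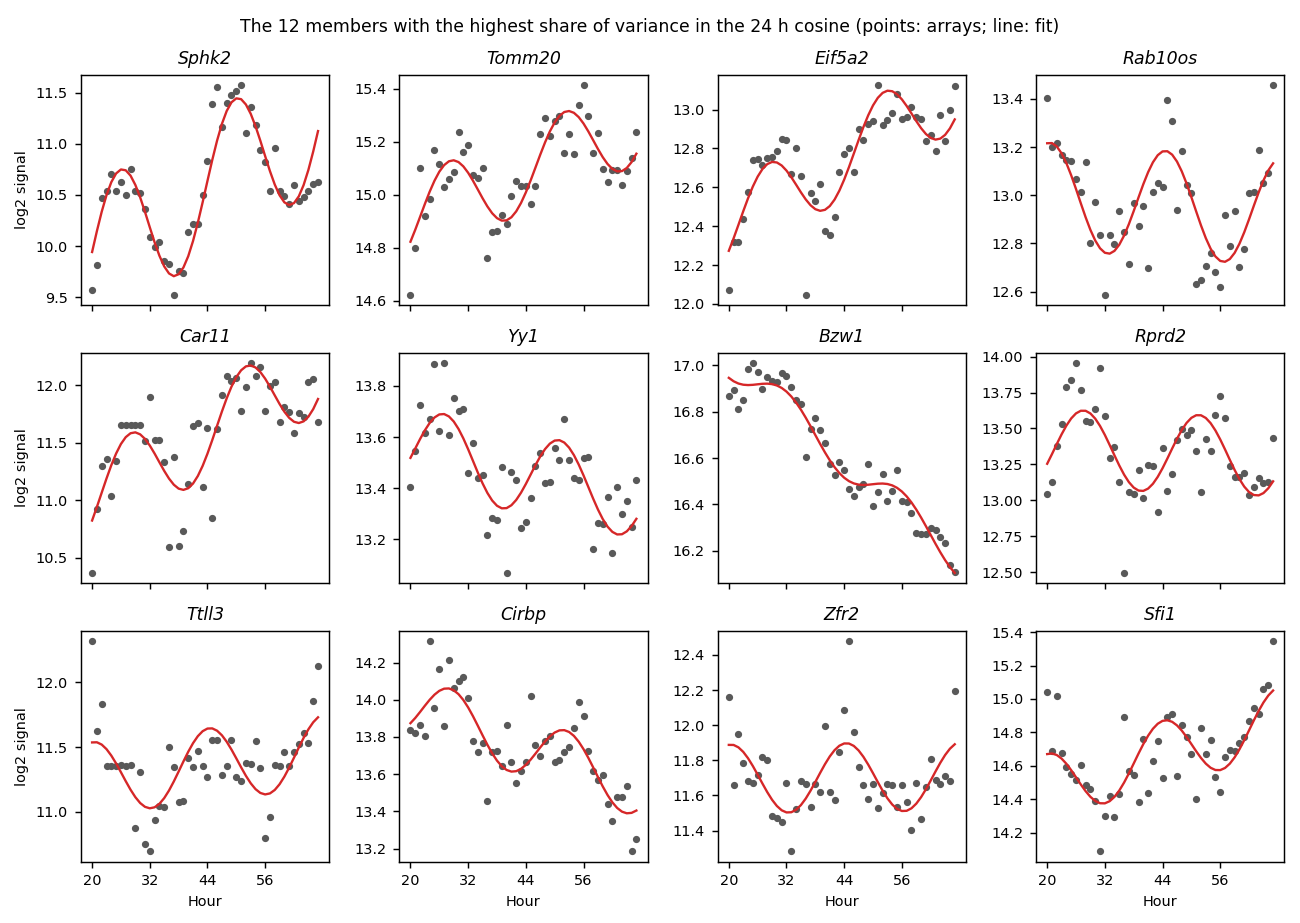
Log2 signal of the 12 members with the highest cosine share against the hour after the shock (points, 1 array each) with the fitted linear trend plus 24 h cosine (line). Sphk2 spans 9.52 to 11.6, whereas the other panels span less, and single arrays at hours 20, 36 and 45 lie off several curves.

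The promoters of a few of these members carry elements that clock and cyclic AMP signals are known to use, and are shown for that reason. The windows hold 300 bases, from 250 before to 50 after an annotated start, are read 5′ to 3′ on the gene's strand and come from RefSeq annotation of build GRCm38.p6. Capitals mark the cyclic AMP response element TGACGTCA, the site of CREB, in Sphk2 (chr7:45717953-45718252, minus strand), and the E-box CACGTG, the site of Bmal1, Usf2 and related factors, in Eif5a2 (chr3:28781027-28781326, plus strand), Tomm20 (chr8:126945872-126946171, minus strand) and Rab10os (chr12:3235541-3235840, plus strand).
Sphk2: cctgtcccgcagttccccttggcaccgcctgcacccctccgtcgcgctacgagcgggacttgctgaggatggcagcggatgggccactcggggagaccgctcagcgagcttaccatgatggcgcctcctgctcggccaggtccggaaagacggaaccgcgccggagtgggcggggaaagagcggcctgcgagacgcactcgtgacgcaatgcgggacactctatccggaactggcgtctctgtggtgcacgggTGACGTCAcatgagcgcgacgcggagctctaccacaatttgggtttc
Eif5a2: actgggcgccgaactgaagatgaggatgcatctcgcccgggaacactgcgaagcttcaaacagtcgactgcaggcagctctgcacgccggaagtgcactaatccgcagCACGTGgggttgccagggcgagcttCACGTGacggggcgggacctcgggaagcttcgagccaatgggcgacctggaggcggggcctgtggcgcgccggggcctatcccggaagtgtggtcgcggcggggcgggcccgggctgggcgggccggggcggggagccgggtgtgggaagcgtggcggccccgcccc
Tomm20: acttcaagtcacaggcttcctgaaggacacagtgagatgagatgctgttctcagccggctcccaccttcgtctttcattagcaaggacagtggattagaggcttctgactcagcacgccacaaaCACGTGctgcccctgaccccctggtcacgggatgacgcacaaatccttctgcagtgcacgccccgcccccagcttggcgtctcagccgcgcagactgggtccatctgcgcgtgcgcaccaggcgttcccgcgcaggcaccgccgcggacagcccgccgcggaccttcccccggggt
Rab10os: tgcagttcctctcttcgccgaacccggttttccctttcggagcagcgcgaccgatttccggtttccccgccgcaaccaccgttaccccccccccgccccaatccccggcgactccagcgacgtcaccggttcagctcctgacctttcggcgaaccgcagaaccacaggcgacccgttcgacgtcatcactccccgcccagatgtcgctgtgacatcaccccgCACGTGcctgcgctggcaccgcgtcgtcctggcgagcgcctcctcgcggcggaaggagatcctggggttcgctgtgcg
In Sphk2 the element begins 3 bases after the start, and in Eif5a2 the E-box occurs 2 times, the first 142 bases before the start. The E-box of Tomm20 lies 126 bases and that of Rab10os 28 bases before it.

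Over all members, 73 of the 97 genes had a promoter in the table. The E-box was held by 13 of them (17.8%), beside 12.3% of the 7737 genes with a probe set of mean log2 10 or more and 8.09% of all 27025 genes. They were Eif5a2, Tomm20, Rab10os, Zfr2, Firre, 2810410L24Rik, Usp6nl, Ola1, Hebp1, Tspan4, Rdh11, Mydgf and C330007P06Rik, with some in each cluster of peaks. The cyclic AMP response element was held by 7 (9.59%, beside 3.71% of the same 7737 genes and 2.03% of all), namely Sphk2, Dvl1, Anapc10, Zfr2, Ppp2ca, Meg3 and Fau. The E-box variant CACGTT was found in 5 (6.85%, beside 6.54% and 5.44%), the ROR core AGGTCA in 11 (15.1%, beside 13.7% and 18.1%) and the D-box, as TTATGTAA or TTACGTAA, in none (beside 0.814% and 1.23%). CCAAT was found in 46.6% (beside 43.7% and 41.1%), the GC box GGGCGG in 64.4% (beside 72.1% and 38.2%), the YY1 motif AAGATGG in 8.22% (beside 9.0% and 7.28%), the ETS motif CCGGAAGT in 5.48% (beside 10.2% and 4.31%) and the NRF1 motif GCGCATGC in 5.48% (beside 6.68% and 3.05%). Both strands were searched, no motif contains another though neighbouring matches may share bases, and a match is a description of the letters only.

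Roles were assigned to the members by hand once they were known, and the counts of early and late members by role are given as a description with no test. Translation and tRNA genes were late in 8 of 10 cases. They included the ribosomal proteins Rps7, Fau, Rps24, Rps2 and Rpl37a, whose amplitudes were the smallest of all. Rps7 ranged from 18.40 at hour 45 to 18.58 at hour 55 with an amplitude of 0.033 ± 0.006, and Rps24 from 18.51 at hour 46 to 18.71 at hour 34 with 0.032 ± 0.006. Fau (0.024 ± 0.005) and Rps2 (0.016 ± 0.004) swung less still, at mean log2 signals of 18.4 to 18.7 that are among the brightest of the array. Ribosomal protein genes have many near-identical copies in the genome, and probe sets for them can take signal from these. Of 44 ribosomal protein genes with a mean of 10 or more, 28 (63.6%) had a peak in hours 20 to 32 at their brightest probe set, beside 48.8% of all 9451 genes, and the median amplitude of the 44 was 0.015. Eif1a, a factor of start codon scanning, peaked at hour 30.3 with 0.05 ± 0.01.

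Transcription and chromatin genes were late in 9 of 13 probe sets. Usf2, a basic helix-loop-helix factor that itself binds E-boxes, had an amplitude of 0.18, and Smad4, the common partner of the Smads in TGF-β signalling, 0.09, with peaks at hours 28.2 and 28.9. Other probe sets of these genes differed from the members. The other one of Usf2 (mean 14.3) had 0.07 ± 0.03 and a peak at hour 43.2, and those of Smad4 (means 13.4 and 16.5) had 0.04 ± 0.03 and 0.01 ± 0.02 with peaks at hours 20.9 and 36.2. The member probe sets of Sin3b, a scaffold of histone deacetylase complexes, peaked at hours 31.8 ± 0.92 and 31.9 ± 0.93. Their amplitudes were 0.06 ± 0.01 and 0.10 ± 0.02. Another Sin3b probe set, at a mean of 16.1, had 0.05 ± 0.01 and a peak at hour 31.2. One at a mean of 15.1 had 0.04 ± 0.02 and a peak at hour 43.2. Zfp692, a zinc finger protein, and Brd8, a bromodomain protein, were early, with 0.19 ± 0.04 and 0.13 ± 0.03. Tsc22d3, which encodes the glucocorticoid-induced leucine zipper, was late at hour 28.9.

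RNA processing genes were split, 6 early, 2 between and 4 late. Snrpd3, a core protein of spliceosomal snRNPs, had 2 member probe sets. They peaked at hours 28.0 ± 0.78 and 27.0 ± 0.76 with amplitudes of 0.14 ± 0.03 each, and both had their lowest value at hour 36. The brightest Snrpd3 probe set, at a mean of 17.9, was not a member. Its amplitude was 0.036 ± 0.015 and its fitted peak came after hour 32. Ddx17 (an RNA helicase), Pnn, Rbm33 and Ccnl2 (a cyclin that acts in splicing) were early with amplitudes of 0.04 to 0.11. Nop53, which acts in ribosome assembly, was early as well (0.19 ± 0.04, hour 20.5) at its member probe set. Brighter Nop53 probe sets, at means of 16.1 and 17.5, had 0.03 ± 0.03 and 0.02 ± 0.01. Their peaks were at hours 29.2 and 26.2.

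Non-coding transcripts stood on the early side. Of 10 probe sets of 9 genes that the annotation lists as long non-coding RNAs or transcribed pseudogenes, 7 were early, namely those of Rab10os, Firre, E130307A14Rik, 2810410L24Rik, Pisd-ps3 and both of Meg3, and 3 were late, namely 4632415L05Rik, Ppp4r1l-ps and BC065403. Such transcripts made up 1.98% of the ranked probe sets with a peak before hour 24 and 1.64% of all ranked probe sets. Meg3, an imprinted RNA that is kept in the nucleus, had a bright probe set with 16.3 at hour 20, a median of 15.4 and a lowest value of 14.6 at hour 51. Its amplitude was 0.24 ± 0.05 and its peak hour 20.2 ± 0.95. The values of this probe set at hours 36 and 45 were 16.25 and 16.05, close to that of hour 20, and the value at hour 36 lay 0.94 above the curve of the other arrays. A dimmer Meg3 probe set, with values of 10.96, 10.88 and 10.91 at the same hours, had an amplitude of 0.16 ± 0.04 that was 0.167 once the 10 arrays above the β-actin limit were dropped. Firre, an RNA from the X chromosome that is also nuclear, had 0.22 ± 0.04, and 0.25 when those arrays were left out.

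Among the rest, mitochondrial genes (9) and matrix, secreted and protease genes (9) were divided between the clusters, cytoskeleton and centrosome genes were early in 6 of 8 cases and metabolic genes late in 5 of 6. The metabolic group held Lss and Pmvk, enzymes of sterol synthesis, with amplitudes of 0.17 ± 0.04 each and peaks at hours 29.3 and 28.9. Of 25 sterol and fatty acid synthesis genes with a mean of 10 or more, 20 (80.0%) peaked in hours 20 to 32, beside the 48.8% of all genes. None of the 25 passed the 24 h test at its brightest probe set. Their median cosine share was 0.045, below the 0.060 of all genes, so many of these peak hours are loosely set. Rnf207 and Adamts10, an E3 ligase of the RING type and a secreted metalloprotease, had the largest early amplitudes, 0.33 ± 0.07 and 0.32 ± 0.07. Rnf207 was highest at hour 20 (12.96) and Adamts10 at hour 45 (12.60), and both of these arrays are above the β-actin limit. Fem1b, a substrate receptor of a ubiquitin ligase, had the largest late one, 0.42 ± 0.09, which was 0.14 once the 10 arrays above the β-actin limit were dropped. The other Fem1b probe set, at a mean of 16.7, had 0.008 ± 0.010. Dnajb6, a co-chaperone, was early (0.19 ± 0.04) at a member probe set of mean 11.5, while its 3 brighter probe sets, at means of 15.1 to 17.4, peaked at hours 31.7, 30.7 and 26.8 with amplitudes of 0.02 to 0.08. Sar1b, a GTPase of export from the endoplasmic reticulum, was late (0.07 ± 0.01), and Kif3b, a kinesin subunit used in cilia, was late with 0.16 ± 0.04. Another Kif3b probe set, at a mean of 11.8, had 0.05 ± 0.05 and a peak at hour 36.3. The member probe set of Ppp2ca, the catalytic subunit of protein phosphatase 2A, peaked at hour 28.1 with 0.17 ± 0.04. Brighter Ppp2ca probe sets, at means of 15.8 and 16.5, had 0.01 ± 0.02 and 0.04 ± 0.02, with peaks at hours 27.9 and 42.7. Of 16 endoplasmic reticulum chaperone genes with a mean of 10 or more, 1 (6.25%) peaked in hours 20 to 32, beside the same 48.8%.

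**Figure D3:**
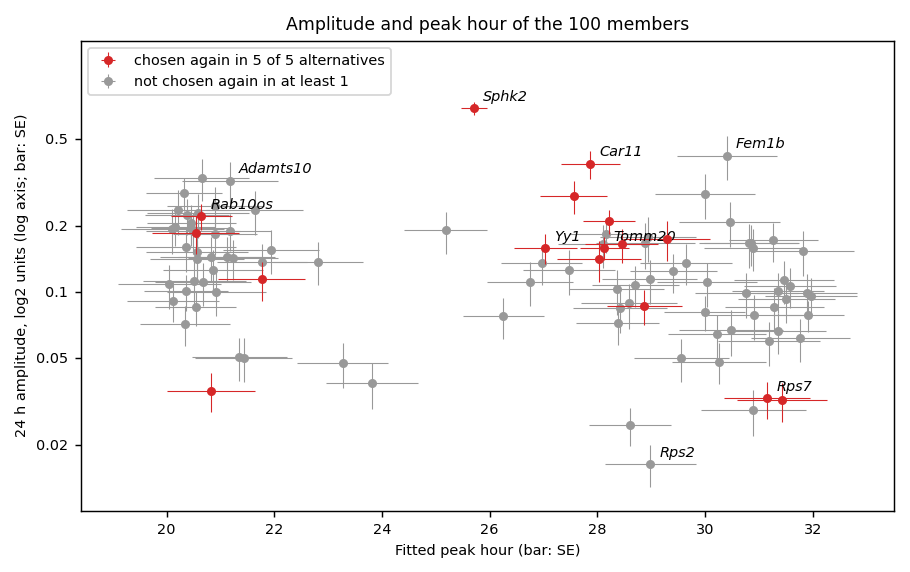
Amplitude (log2 units, log axis) against fitted peak hour for the 100 members, with bars for 1 SE. Red members were chosen again under each of 5 changes to the data or the fit, and grey ones were not. Sphk2 has an amplitude of 0.69 and Rps2 one of 0.016, and few members lie between hours 22 and 28.

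The β-actin difference moved with both clusters, in opposite directions. When it entered the model as a covariate, its coefficient was above 0 in 36 of the 41 early members and below 0 in 46 of the 50 late ones. It passed the test over all probe sets (limma, Benjamini-Hochberg, 0.05) in 64 of the 100 members, beside 36.7% of all probe sets and 67.8% of those with a mean of 10 or more, so the share of members was close to that of other bright probe sets. Positive and called were 24 early members and 1 late one, while negative and called were 34 late members and no early one. Over all probe sets 20% were called above 0 and 16.6% below, and among those with a mean of 10 or more 35.5% and 32.3%. At hour 20 the early members stood on average at 1.87 SD and the late members at -2.08 SD around their trends, and at hour 45 they stood at 1.42 and -1.51 SD. These arrays had β-actin differences of 2.33 and 2.22 log2 units. At hour 36, with the highest difference, which falls near the middle of the cycle, 34 of 41 early members lay above the curve fitted to the other arrays and 44 of 50 late members below theirs. Of the early members 17 had their highest value of the course at hour 20, and of the late members 18 had their lowest there. Early and late are defined by the peak fitted to these same arrays. Those of hours 20, 22, 24, 43, 45 and 46, all above the limit of 1.4, lie near the early peak. The opposite signs thus follow in part from the choice of members and are a description.

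**Figure D4:**
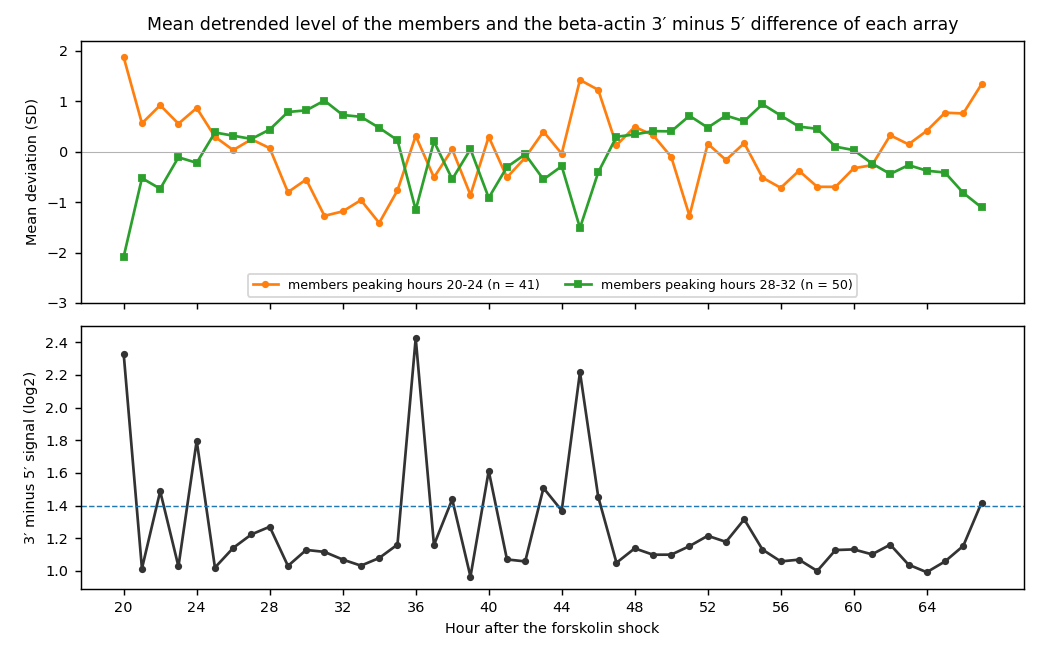
Top, mean level of the 41 early and 50 late members at each hour, in SD around each member's linear trend. Bottom, log2 difference between the 3′ and 5′ probe sets of β-actin on each array, with 1.4 as a dashed line. At hours 20 and 45 the early mean is 1.87 and 1.42 and the late mean -2.08 and -1.51. In hours 29 to 34 and 49 to 58, near the peaks by which late members were chosen, the late mean is above 0. In hours 61 to 66 it is below 0 (-0.23 to -0.82). The difference is below 1.4 in all of these later spans.

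Amplitudes were re-estimated with these arrays accounted for. With the covariate, the median amplitude over the members was 0.108, and without the 10 arrays it was 0.0945, against 0.131 with all arrays. Leaving them out lowered the amplitude of 82 of 100 members. Members were chosen by their fit to all arrays, so lower amplitudes with arrays left out can follow in part from that choice. No such count for other probe sets is given here, so the 82 is a description. In 6 late members the amplitude fell by a factor of more than 2. Fem1b was among these 6, its values at hours 20 and 45 being 9.86 and 9.60 against a median of 11.4. The part of RNA quality in these amplitudes was not tested.

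Membership under changed fits was as follows. The rule chose 61 of the 100 again with the β-actin covariate, 35 without the 10 arrays of high difference, 53 with a term for hours 52 to 55, 53 without hours 20 to 25 and 55 without the array of hour 36. In all 5 of these settings 16 members were chosen again. They were Sphk2, Tomm20, Eif5a2, Rab10os, Car11, Yy1, Rprd2, Cirbp, Smad4, Rps7, Dnajb6, Ddx17, Rps24, Rbm33, Lss and 1 probe set of Snrpd3, that with its peak at hour 28.0. Of these 4 were early, 4 peaked between hours 24 and 28 and 8 were late, so that members between the clusters, 9 in all, were chosen again in 4 of 9 cases, early ones in 4 of 41 and late ones in 8 of 50. The label of 24 h transcripts thus describes the fit over all 48 arrays, and 84 members were not chosen again in at least 1 of the 5 settings.

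Other probe sets of the same genes were measured on the same arrays, and are those that the rule did not choose. Where the mean was 10 or more and the fitted peak lay in the members' window, they were ranked and left out. Their share there is thus below that of every member. The shares, peaks and test counts that follow are shaped in part by this choice and are a description. Besides the members, 138 probe sets with a mean of 10 or more matched 66 of the member genes. Their fitted peak lay within 3 h of that of the member in 75 (54.3%), against 45.0% of 11743 such pairs formed in the same way from ranked probe sets that were not members. The figure was 63.6% for early members (35 of 55), 42.9% for those between the clusters (6 of 14) and 49.3% for late members (34 of 69). The median share was 0.0859, against 0.0596 over all probe sets with such a mean, and the median amplitude 0.0538, against 0.0532. Of the 138, 4 passed limma's 24 h test, beside 0.622% of all probe sets with such a mean. They belonged to Firre (2), Meg3 and Bzw1, with amplitudes of 0.27 ± 0.06 and 0.27 ± 0.06 (Firre, hours 43.9 and 43.4), 0.18 ± 0.04 (Meg3, hour 43.9) and 0.09 ± 0.02 (Bzw1, hour 33.0), all within 3 h of their members around the cycle. All 4 peaked outside the members' window, where the rule put no limit on the share. A dim probe set of Eif5a2, at a mean of 8.98, passed as well (0.31 ± 0.06, hour 29.1). The member probe set of Tomm20, at a mean of 15.1, had an amplitude of 0.16, against 0.02 to 0.04 for the 4 brightest of its other probe sets, at means of 16.8 to 17.6. That of Yy1 had 0.16, against 0.03 for the brightest Yy1 probe set, and that of Rprd2 had 0.27, against 0.03 to 0.08 for 4 other Rprd2 probe sets with a mean of 10 or more. That of Rbm33 had 0.11 with a peak at hour 21.8, against 0.05 and hour 30.6 for a probe set at a mean of 13.6. Among the members, 8 probe sets have names ending in x_at and 9 in s_at, the maker's marks for probes that can match other transcripts or several transcripts of a family. In Meg3 the other probe sets had amplitudes of 0.05 to 0.23, and, where the mean was 10 or more, peaks at hours 43.6 to 43.9 or 21.2 to 24.6. A brighter Firre probe set (mean 14.1) had 0.04 ± 0.04.

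The linear trend was removed before members were ranked, so it was not used to choose them. Of the 100, 32 rose and 29 fell over the 47 h (limma, adjusted p under 0.05), in all 61, beside 30.4% of all probe sets (14.2% rising and 16.2% falling) and 55.3% of those with a mean of 10 or more (27.7% and 27.6%). Thus the members trended about as often as other bright probe sets. The late members rose in 22 cases and fell in 10, whereas the early members rose in 7 and fell in 15, and this difference between clusters was not tested. The β-actin 3′ minus 5′ difference of the arrays changed by -0.30 log2 units over the same 47 h. Its part in the trends was not tested. Among genes of the matrix group 6 rose and 3 fell, and none was without a trend.

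Ogn, osteoglycin, a small leucine-rich proteoglycan of the matrix, stayed between 15.1 and 15.5 up to hour 35 and climbed after that. The straight line of the model does not follow this bend. It had a lowest log2 signal of 15.1 at hour 23, a median of 16.1 and a highest of 17.2 at hour 67, a rise of 2.30 ± 0.08 (adjusted p = 4.18e-28). Dpep1, a dipeptidase on the cell surface, rose by 1.71 ± 0.07 (adjusted p = 8.48e-26), with values from 13.7 at hour 20 to 15.6 at hour 58. Sphk2 and Car11, given above, had the next largest rises. The largest fall was that of Vcan, versican, a large proteoglycan of provisional matrix, which changed by -1.24 ± 0.09 (adjusted p = 3.41e-16) between 14.8 at hour 23 and 13.2 at hour 66. Cstad changed by -0.88 ± 0.10 (adjusted p = 3.65e-10), Bzw1 by -0.84 ± 0.03 (adjusted p = 1.84e-25) and Gtf2f2, a subunit of the general transcription factor TFIIF, by -0.74 ± 0.05 (adjusted p = 7.58e-16). In Ogn, Dpep1, Vcan, Cstad, Bzw1 and Gtf2f2 the trend exceeded the full swing of the cosine, since the amplitudes lay between 0.08 and 0.19.

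The 12 h and 8 h harmonics, the subject of the study in liver, were looked for in the members. None passed limma's test at 12 h (smallest adjusted p = 0.915) or at 8 h (smallest adjusted p = 0.0608), and no probe set of the array did either. At an unadjusted p under 0.05 there were 5 members at 12 h, beside 1.43% of all probe sets and 2.34% of those with a mean of 10 or more, and 27 at 8 h, beside 43.7% of all probe sets and 17.5% of those with a mean of 10 or more. The rule ranked members by the share of the 24 h cosine, which leaves less variance to other periods, though at a median share of 0.328 most of the detrended variance lay outside that cosine. The adjusted count at 8 h, 0 in the main model, depended on single arrays and on the trend. With a quadratic trend it was 12 of the 100 members, beside 31.5% of all probe sets.

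Lastly, the later cycle (hours 44 to 67) was set against the earlier one (hours 20 to 43), 24 arrays each. The median amplitude was 0.129 in the later window and 0.154 in the earlier, and the later amplitude was the lower one in 53 of 100 members. The windows differed in array quality. Of the arrays above the β-actin limit, those of hours 20, 22, 24, 36, 38, 40 and 43 fell in the earlier window. Those of hours 45, 46 and 67 fell in the later one. The part of these arrays in the comparison was not tested. By limma's interaction of window and cosine 18 members differed between cycles, beside 49% of all probe sets and 23.4% of those with a mean of 10 or more. When hours 52 to 55 got a term of their own there were 7, beside 1.82% and 3.87%. The rule favours members that are alike in both cycles. Ogn had an amplitude of 0.04 ± 0.04 in the later window and 0.21 ± 0.03 in the earlier (adjusted p = 0.00193). The part of the bend in its rise in this difference was not tested. Lss had 0.29 ± 0.05 and a peak equal to hour 26.9 in the later window, and 0.19 ± 0.04 with a peak at hour 31.0 in the earlier (adjusted p = 0.00201). In Mettl17, a mitochondrial protein of ribosome assembly, the amplitudes were alike (0.34 ± 0.07 later, 0.29 ± 0.08 earlier) while the peak came 5.3 h earlier in the cycle, at hour 42.4 in the later fit and 23.7 in the earlier, both counted from hour 20 (adjusted p = 0.00200). The non-coding 2810410L24Rik also peaked earlier in the later window, with 0.19 ± 0.04 at hour 43.0 there and 0.22 ± 0.05 at hour 24.2 in the earlier (adjusted p = 0.00196).

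**Figure D5:**
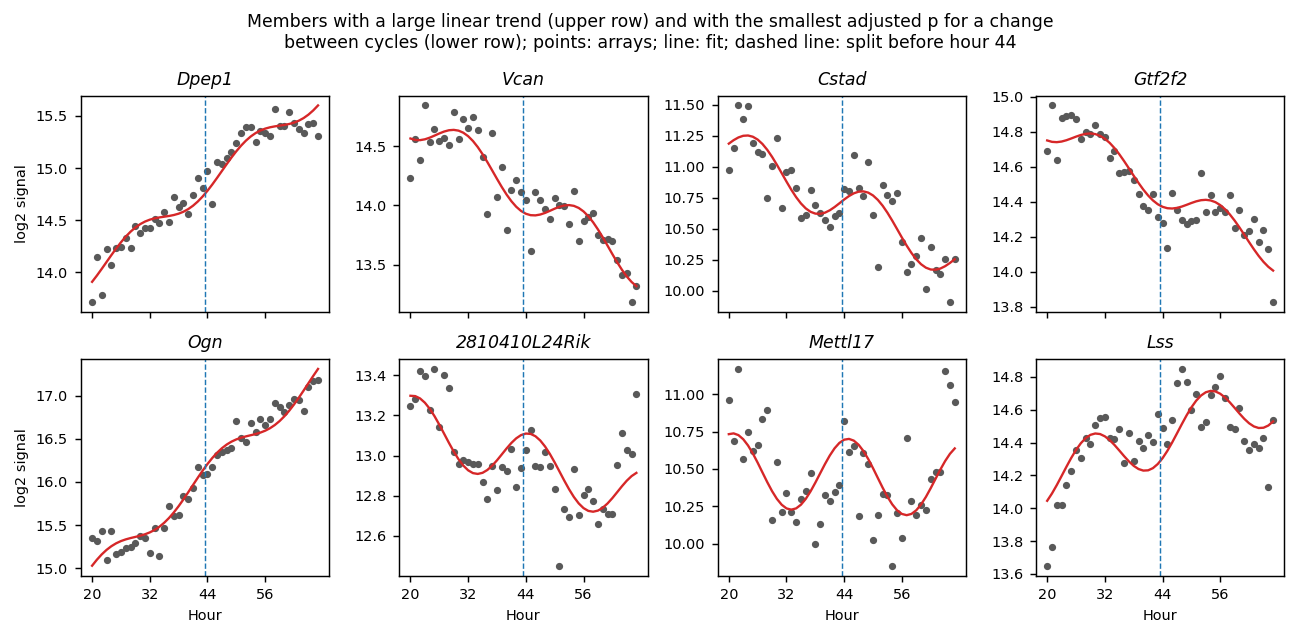
Log2 signal of 8 members against hour (points) with the fitted trend plus 24 h cosine (line) and a dashed line at the split between windows. In the upper row Dpep1 rises by 1.71 and Vcan, Cstad and Gtf2f2 change by -1.24, -0.88 and -0.74. In the lower row Ogn, 2810410L24Rik, Mettl17 and Lss leave the single cosine in one of the windows.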

How the data were processed

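The deposited table holds 1 intensity per probe set and array on a linear scale that the authors had corrected for background and normalized; their methods name GCRMA for expression values, the submitters' processing notes name MAS5, and no version was stated. The scaling constant is unknown, so levels are read only within the series, and signals of different probe sets are not amounts of RNA. Depth has no counterpart on arrays. Values were taken to log2 with no added constant. Of 45037 probe sets that are not controls, 34945 had 1 gene symbol, 932 several and 9160 none; 34741 matched the RefSeq gene table (GRCm38.p6) by gene ID.

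Each hour was its own group. Models with a linear hour term and a 24 h cosine, with added 12 h and 8 h cosines, or with an interaction of cosine and window, were fitted with limma 3.58.1 in R 4.3.3 over all 48 arrays, with moderated tests and Benjamini-Hochberg adjustment over all 45037 at 0.05. The scripts were tested on simulated data. Summaries used pandas 2.3.3 and numpy 2.4.6 under Python 3.11.15, and figures matplotlib 3.10.9.

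The members, gene lists, tests and markers were chosen with earlier results of these data known. Named were the 12 members of highest cosine share, the 6 of largest amplitude, the 3 earliest and 3 latest peaks, 3 on either side of the rank limit, genes with several member probe sets, the 4 largest rises and 4 largest falls, up to 4 members per harmonic and for the change between cycles, and up to 4 per gene list (27 lists matched by symbol, which took Rab10os for a small GTPase and Ppp4r1l-ps for a phosphatase); others named by role or in counts were chosen after their values were seen. Alternatives were a β-actin covariate, leaving out 10 arrays, a term for hours 52 to 55, quantile normalization, median centring, linear values, a quadratic trend, leaving out hours 20 to 25, other level limits, a best-fit period of 20 to 28 h and leaving out each array.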

Additional observations from a re-analysis of the deposited data

Results flagged for a closer look

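The cosine of Ogn, 2810410L24Rik, Mettl17 and Lss differed between the later and the earlier window by limma's interaction test (adjusted p = 0.00193, 0.00196, 0.00200 and 0.00201). When hours 52 to 55 got a term of their own, the adjusted p was 0.00543 for Ogn, 0.00456 for 2810410L24Rik, 0.0348 for Mettl17 and 0.00793 for Lss. Ogn differed in amplitude (0.04 later, 0.21 earlier), whereas 2810410L24Rik, Mettl17 and Lss peaked earlier in the cycle in the later window, by shifts of -5.20, -5.32 and -4.11 h. Ogn was level at first and then climbed, and the part of this bend was not tested.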

How the results depend on the processing

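Of the 100 members the rule chose 61 again with the β-actin covariate, 35 without the 10 arrays above the β-actin limit, 53 with a term for hours 52 to 55, 53 without hours 20 to 25 and 52 with a best-fit period of 20 to 28 h, and between 55 (hour 36) and 96 when a single array was left out. The median amplitude was 0.0945 without the 10 arrays, and leaving out single arrays gave 0.119 to 0.135. The count past the 24 h test, 50, was 25 with the covariate, 12 without the 10 arrays, 16 without hours 20 to 25 and 86 when only probe sets with a mean of 10 or more were tested. It ran from 22 to 91 with single arrays left out, and moved by over 1.5 times for hours 20 (22), 30 (32), 31 (23), 32 (28), 33 (31), 34 (27), 35 (31), 36 (91), 42 (79), 45 (33), 46 (31) and 56 (33). At 8 h the count of 0 was 12 with a quadratic trend, a setting that called 31.5% of all probe sets, and 0 to 15 with single arrays left out, being 15, 8, 9, 13, 14, 7, 10 and 11 without hours 29, 31, 41, 42, 49, 52, 62 and 63. Between cycles the count of 18 was 31 with the covariate, 36 without the 10 arrays, 7 with the term for hours 52 to 55, 8 with median centring, 10 with a quadratic trend and 16 to 26 with single arrays left out. The causes were not tested. The counts of rising (32) and falling (29) members stayed within 1.5 times under every setting run, and the count at 12 h stayed at 0. Among the probe sets named, the amplitude moved by more than its standard error in 24 of 49 without the 10 arrays, in 19 with the covariate and in 6 with the term for hours 52 to 55. No paired analysis was possible because each hour has 1 array and the groups share no replicates.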
